A study of Mus musculus with 12 samples.

Results

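Nexn and 9 other genes of the actin contractile apparatus (Acta2, Tagln, Cnn1, Myl9, Tpm1, Tpm2, Cald1, Actg2 and Lmod1) were followed across every library, 10 of the 55487 genes in each count table. Their rows were found by gene symbol in the GRCm38 annotation. Nexn was selected on its difference between OVX and sham in these data, and the other 9 were chosen by their known contractile role with those results in view. The OVX against sham values of the 10 genes are therefore a description with no test, and the tests are those of the MSC cultures, whose values were not used to select Nexn, although earlier results of both experiments were known when the 10 genes were chosen. All 10 genes passed the filter on low counts in both tables.

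All samples came from limb bones of C57BL/6 mice labelled with an age of 8 weeks, which the study's methods give as the age at surgery for the ovariectomized mice. In the first experiment, bone marrow-derived macrophages (BMMs), marrow cells grown in macrophage colony-stimulating factor, were compared between ovariectomized mice (OVX, 3 libraries), a model of oestrogen loss, and mice given a sham operation (sham, 3 libraries). In the second, bone marrow mesenchymal stem cells (MSCs), plastic-adherent marrow cells, were grown alone as the control (MSC, 2 libraries), with RAW cells, a mouse macrophage line (MSC+RAW-TW, 2 libraries), or with RAW cells stimulated with lipopolysaccharide (LPS), a bacterial trigger of inflammation (MSC+RAW-LPS-TW, 2 libraries). TW stands for Transwell, a porous membrane between the cell types, as the study's methods describe these groups for other assays, while the labels say only that the cells were co-cultured. The labels do not say whether libraries came from separate animals or cultures, so each p-value measures only the spread between these libraries, which may be technical.

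Total counts ran from 17012923 in sham 2 to 45367105 in an MSC+RAW-TW library. Sham 2 and sham 3 differed by 2.5 times the noise of counting at low counts and 2.7 times at high counts, and the MSC+RAW-TW libraries (a and b) by 3.07 and 3.18 times. In every other pair of a group this ratio rose with the count, to between 15.14 and 75.49, and between 60.0% and 71.4% of the small counts in a library were even, as when both mates of a read pair are counted. Each of the near-identical pairs was therefore counted as 1 sample. Both MSC+RAW-TW columns also carry the same sample name, MR-1, with different library numbers, while the labels list separate replicates. This left 3 OVX, 2 sham, 2 MSC, 1 MSC+RAW-TW and 2 MSC+RAW-LPS-TW samples, and in the fits the lone MSC+RAW-TW sample was assumed to vary like the other groups. The libraries also differed in how their counts followed base composition. Across genes, the rank correlation between a library's deviation and GC content lay from -0.705 to -0.388 in OVX, from 0.234 to 0.64 in sham, from -0.416 to -0.236 in MSC and MSC+RAW-LPS-TW, and was 0.509 and 0.502 in MSC+RAW-TW. All values were therefore also fitted after trends in each sample on GC content and on the length of the gene had been removed.

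The markers did not match the labels cleanly. All 20 macrophage markers and all 12 stromal markers exceeded 3 counts in every library of both experiments. The summed stromal markers reached 12530 to 13453 CPM (counts scaled to a common library size) in OVX and 10529 to 12325 in sham, against 4074 to 4137 in MSC, 3193 to 3234 in MSC+RAW-TW and 5643 to 5747 in MSC+RAW-LPS-TW. The summed macrophage markers were 49574 to 54105 in OVX, 64949 to 73200 in sham, 33154 to 33181 in MSC, 42796 to 43458 in MSC+RAW-TW and 19329 to 19951 in MSC+RAW-LPS-TW. The libraries labelled BMM thus held RNA of stromal genes, and those labelled MSC held RNA of macrophage genes. In such bulk samples, fewer cells of a type and less RNA per cell cannot be told apart.

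Contraction outside striated muscle depends on actin filaments that slide along myosin. Smooth muscle actins (Acta2, Actg2) form the filament, tropomyosins (Tpm1, Tpm2) lie along it, and calponin (Cnn1), caldesmon (Cald1) and transgelin (Tagln) bind it and modulate its use by myosin, whose regulatory light chain in smooth muscle is Myl9. Lmod1 nucleates new filaments, and Nexn (nexilin) binds filamentous actin at adhesions and Z-discs. In bone marrow these genes mark smooth muscle cells, pericytes and contractile stromal cells, and many of them are read by serum response factor (SRF), which binds the CArG box, and by TEAD factors, which bind the letters CATTCC.

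Promoter sequences are shown for the genes that the comparisons below turn on and for which the RefSeq table (GRCm38.p6) held a window, with 250 bases before the annotated start on the strand of the gene. Capitals mark a CArG box or a CATTCC match, searched on both strands, so that the reverse strand match reads GGAATG. The windows are chr19:34255374-34255623 on the minus strand for Acta2, chr2:156775214-156775463 on the plus strand for Myl9, chr4:43523555-43523804 on the minus strand for Tpm2, and chr6:34598254-34598503 on the plus strand for the upstream start of Cald1.
Acta2: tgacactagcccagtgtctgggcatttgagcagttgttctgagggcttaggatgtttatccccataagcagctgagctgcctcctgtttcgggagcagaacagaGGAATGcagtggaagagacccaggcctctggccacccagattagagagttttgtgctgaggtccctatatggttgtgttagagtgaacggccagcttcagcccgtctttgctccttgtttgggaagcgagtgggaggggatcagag
Myl9: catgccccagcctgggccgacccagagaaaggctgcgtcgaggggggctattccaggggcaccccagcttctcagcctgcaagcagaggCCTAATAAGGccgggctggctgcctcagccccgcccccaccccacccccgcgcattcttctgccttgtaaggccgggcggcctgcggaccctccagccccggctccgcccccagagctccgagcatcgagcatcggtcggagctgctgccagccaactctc
Tpm2: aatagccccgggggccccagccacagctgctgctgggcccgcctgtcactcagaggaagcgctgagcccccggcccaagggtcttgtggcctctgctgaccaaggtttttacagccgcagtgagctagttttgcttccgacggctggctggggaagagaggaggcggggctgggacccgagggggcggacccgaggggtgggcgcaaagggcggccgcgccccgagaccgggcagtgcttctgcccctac
Cald1: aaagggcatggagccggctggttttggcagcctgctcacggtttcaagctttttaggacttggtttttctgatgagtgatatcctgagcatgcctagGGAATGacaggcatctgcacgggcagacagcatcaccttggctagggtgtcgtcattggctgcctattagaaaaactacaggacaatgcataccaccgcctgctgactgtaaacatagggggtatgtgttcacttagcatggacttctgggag

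Of the 10 genes, 7 had a window in that table (8 windows, since Cald1 had 2), and Nexn, Tagln and Actg2 had none. In the full windows of 300 bases, a CArG box in its strict consensus form, with no mismatch allowed, was found for Myl9 alone, from -161 to -152 relative to the start, where 1.63% of 32851 windows genome-wide held such a box. CATTCC was found for 4 genes, from -146 to -141 for Acta2, from -56 to -51 for Tpm1, from -153 to -148 at the upstream start of Cald1 and from -130 to -125 for Lmod1, against 14.7% of all windows. TATAAA was found once, from -186 to -181 at the other start of Cald1, against 13.6% of all windows. No match overlapped another. Forms of the box with a mismatch were not searched. A match describes letters in the window and is no evidence that a factor bound there.

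The first question was how the 10 genes differed between macrophage cultures of OVX and sham mice. Nexn and Cald1 were far higher in OVX, the smooth muscle actins, tropomyosins, Cnn1, Lmod1 and Myl9 were modestly higher, and Tagln was split within sham. Over the 10 genes the median log2 fold change was 0.67, against -0.01 for all 16768 genes tested. A gene was called at an adjusted p of at most 0.05 by edgeR's quasi-likelihood test and a fold of at least 2. As a description only, 2 of the 10 (Nexn and Cald1) met that rule as higher and 0 as lower, where the rule called 5.39% of all genes higher and 3.08% lower. In 9 of the 10 every OVX sample lay above every sham sample, as did 25.1% of all genes. Among all genes called, 63.6% were higher in OVX, and 37.3% with the GC and length trends removed. Nothing is read from the counts of the 10 genes, since the contrast was used in choosing the genes.

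Nexn (ENSMUSG00000039103, chr3:152236982-152266350, minus strand) stood at 30, 21.8 and 48.7 CPM in OVX 1, 2 and 3. In sham 1, 2 and 3 it stood at 3.34, 4.83 and 4.68 CPM. All OVX libraries were above all sham libraries, with OVX 3 the highest, and the raw counts were 823 to 1621 in OVX and 79 to 126 in sham. The group means were 33.5 CPM ± 13.8 (SD, n = 3) and 4.05 CPM ± 1 (SD, n = 2), and the fitted log2 fold change was 3.01 ± 0.39 (SE), or 8.03-fold. Of the 10 genes, Nexn has the lowest GC content (39.6% in its longest transcript). With the GC and length trends removed, its log2 fold change was 2.25, and leaving out single libraries gave 2.64 to 3.25. Nexn shares 287 exonic bases with Gm43185 on the same strand, whose counts reached at most 110 in the BMM libraries.

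Cald1 (chr6:34598500-34775473, plus strand), which encodes caldesmon, showed the next widest gap. It measured 730, 711 and 814 CPM in OVX 1, 2 and 3. In sham 1, 2 and 3 it measured 232, 233 and 242 CPM. The groups were tight and far apart, at 752 CPM ± 54.9 (SD, n = 3) and 235 CPM ± 3.55 (SD, n = 2), a difference of 1.64 ± 0.18 (SE) on the log2 scale. Its GC content of 45.0% is the second lowest of the 10, and the log2 fold change was 1.24 with the trends removed.

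Acta2, the vascular smooth muscle actin, was the highest of the 10 genes per length in both groups. Acta2 (chr19:34241090-34255590, minus strand) read 2349, 2892 and 2691 CPM in OVX 1, 2 and 3. It read 1919, 1459 and 1471 CPM in sham 1, 2 and 3. The groups did not overlap, with sham 1 between the OVX libraries and the other sham libraries, and the log2 fold change was 0.61 ± 0.19 (SE). Actg2 (chr6:83512905-83536265, minus strand), the enteric smooth muscle actin, ran from 284 to 302 CPM in OVX and from 185 to 215 CPM in sham, a difference of 0.53 ± 0.18 (SE) on the log2 scale. By contrast, the cytoplasmic actin Actb had means of 6410 CPM in OVX and 10421 CPM in sham. Its log2 fold change was -0.74 (edgeR adjusted p = 0.0415, a description only, as explained for the wider list below).

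Among the tropomyosins, Tpm1 (chr9:67022590-67049406, minus strand) read 1968, 2101 and 2188 CPM in OVX 1, 2 and 3. It read 1164, 1200 and 1195 CPM in sham 1, 2 and 3. The separation was wide against the spread within groups, and the log2 fold change was 0.78 ± 0.17 (SE). Tpm2 (chr4:43514711-43523765, minus strand) ran from 436 to 602 CPM in OVX and from 267 to 404 CPM in sham, with OVX 1 close to sham 3, and its log2 fold change of 0.6 ± 0.25 (SE) ranged from 0.32 to 0.97 over the alternative settings.

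Cnn1 (chr9:22099216-22109630, plus strand) ran from 70.5 to 101 CPM in OVX and from 48.1 to 55.8 CPM in sham, and Lmod1 (chr1:135324807-135368065, plus strand) from 25.8 to 43 CPM and from 16.8 to 22 CPM. Their log2 fold changes were 0.73 ± 0.21 (SE) and 0.77 ± 0.24 (SE), and that of Lmod1 passed 2-fold, at 1.05, with the trends removed. Myl9 (chr2:156775420-156781658, plus strand) was closest between groups of the 9 genes that did not overlap, at 485, 524 and 518 CPM in OVX 1, 2 and 3 and 362, 433 and 434 CPM in sham 1, 2 and 3. Its log2 fold change was 0.32 ± 0.18 (SE), 0.16 without sham 1 and 0.74 with the trends removed.

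Tagln (chr9:45929619-45936058, minus strand) did not follow the rest. It read 43.3, 67.3 and 79.8 CPM in OVX 1, 2 and 3. In sham it read 22.5 CPM in sham 1 and 139 CPM in both sham 2 and sham 3, so that the OVX libraries lay between the sham libraries. The log2 fold change was -0.41 ± 0.62 (SE), and -1.2 without sham 1. Of its 1988 exonic bases, Tagln shares 1241 with Gm48529, an antisense gene, and 108 with Pcsk7, both on the opposite strand. The sources do not state whether counting used strand, so reads in those positions cannot be assigned with certainty. This limit holds for the Tagln values of both experiments.

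**Figure D1:**
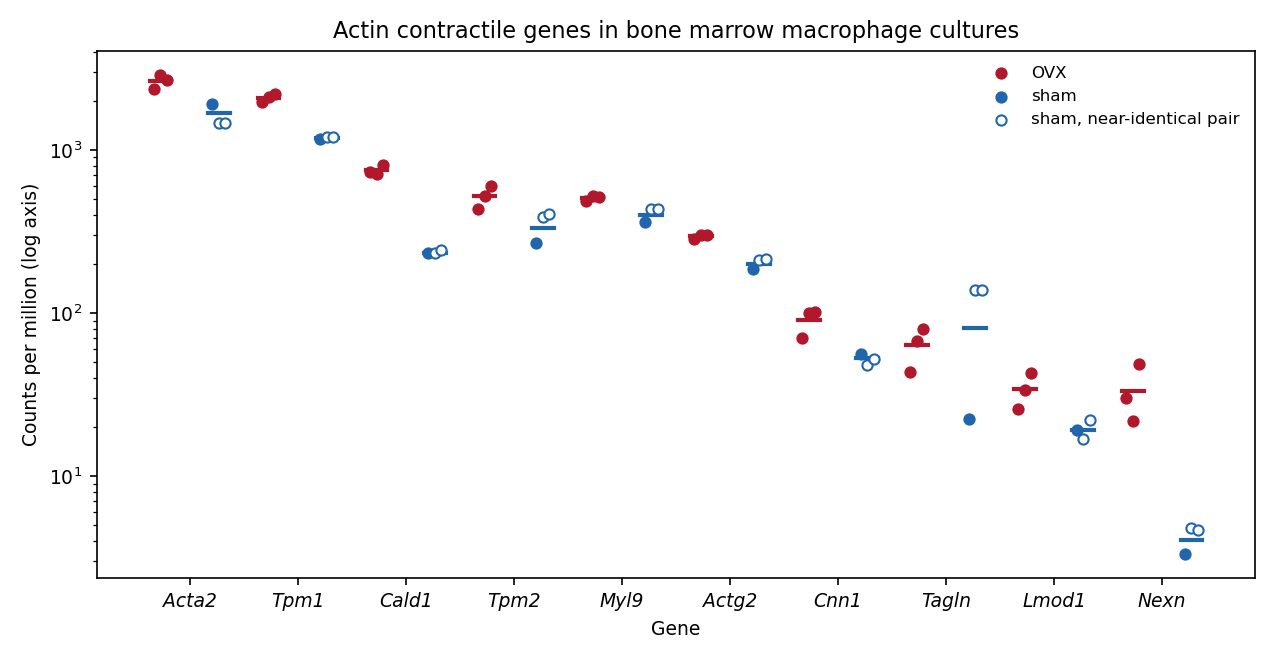
Level of each of the 10 genes in the 6 BMM libraries, in CPM on a log axis, with 1 point per library and a bar at the group mean (open points, the near-identical sham libraries 2 and 3, counted once in the mean). Nexn and Cald1 show the widest gap between OVX and sham, and for Tagln the sham libraries lie on both sides of the OVX libraries.

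Markers of pericytes, skeletal muscle and endothelial cells were low, unlike the stromal markers given above. The summed pericyte markers were 27.1 to 32.5 CPM in OVX and 39.2 to 42 CPM in sham, with Higd1b at 0 in some libraries. The summed skeletal muscle markers were 4.38 to 6.36 and 3.69 to 6.54 CPM, with 2 to 5 of the 10 at 0 in OVX and 2 to 4 in sham, and the endothelial markers were 26 to 31.4 and 23.5 to 29.9 CPM. Myh11, the smooth muscle myosin heavy chain, averaged 1.8 CPM in OVX and 0.962 CPM in sham. Where 5.39% of all genes were called higher and 3.08% lower, of the 12 stromal markers 1 was called higher (Postn, 727 against 194 CPM), with a median log2 fold change of 0.08, and of the 20 macrophage markers 5 were called lower, with a median of -0.67. Of the pericyte markers 2 of 7 tested were called lower, of the adipocyte markers 1 of 2, and of the endothelial (7 tested), skeletal muscle (5 tested) and megakaryocyte markers (8 tested) none was called or passed the edgeR adjusted p alone. The summed level of the 10 contractile genes was 6421 to 7387 CPM in OVX and 4135 to 4230 CPM in sham. The part that the stromal and macrophage markers played in the difference was not tested.

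The second question was whether MSCs grown with RAW cells differed from MSCs grown alone. With unstimulated RAW cells, 6 of the 10 genes were higher at an adjusted p of at most 0.05 and 0 were lower, and 2 of them, Tpm2 and Myl9, also passed 2-fold. At the adjusted p alone, 13.8% of the 20499 genes tested were higher and 14.8% lower, and with the fold limit 6.8% were called higher and 9.59% lower. The median log2 fold change was 0.65 over the 10 genes and -0.13 over all genes. Of all genes called, 41.5% were higher, and 52.0% with the trends removed. MSC+RAW-TW is 1 sample here (n = 1), so every SE and adjusted p that involves it takes its spread from the other groups.

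Tpm2 read 322 and 341 CPM in MSC 1 and 2, and 788 and 781 CPM in the MSC+RAW-TW libraries a and b. It rose by 1.29 ± 0.21 (SE) on the log2 scale, or 2.44-fold (edgeR adjusted p = 0.000606). Myl9 read 211 and 223 CPM in MSC 1 and 2, and 469 and 466 CPM in MSC+RAW-TW a and b, a difference of 1.15 ± 0.2 (SE) on the log2 scale (edgeR adjusted p = 0.000789). For both genes the co-cultured libraries lay far above the MSC libraries. These are the genes of highest GC content in the group (55.1% and 56.6%), and with the trends removed both fell short of 2-fold, at 0.86 for Tpm2 (edgeR adjusted p = 0.00824) and 0.76 for Myl9 (edgeR adjusted p = 0.0094).

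Smaller rises past the adjusted p were seen for Lmod1, Cnn1, Actg2 and Cald1. Actg2 read 82.6 and 79.4 CPM in MSC 1 and 2, and 123 and 125 CPM in MSC+RAW-TW a and b, a difference of 0.66 ± 0.17 (SE) on the log2 scale (edgeR adjusted p = 0.0116). Cald1 read 458 and 464 CPM in MSC 1 and 2, and 706 and 685 CPM in MSC+RAW-TW a and b, a difference of 0.64 ± 0.19 (SE) on the log2 scale (edgeR adjusted p = 0.0202), which became 1.18 and passed 2-fold with the trends removed. Lmod1 and Cnn1 had log2 fold changes of 0.76 (edgeR adjusted p = 0.023) and 0.74 (edgeR adjusted p = 0.0164). With the trends removed, the adjusted p by edgeR was 0.132 for Lmod1, 0.056 for Cnn1 and 0.0513 for Actg2. None of these 4 passes held without each MSC library in turn: by edgeR the adjusted p was 0.0984 for Cnn1, 0.0731 for Actg2 and 0.172 for Cald1 without MSC 1, and 0.0812 for Lmod1, 0.106 for Actg2 and 0.156 for Cald1 without MSC 2.

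The other 4 genes did not pass. Nexn read 30.1 and 26.8 CPM in MSC 1 and 2 and 22.3 and 22 CPM in MSC+RAW-TW a and b, a difference of -0.32 ± 0.22 (SE) on the log2 scale (edgeR adjusted p = 0.282), which turned to 0.47 with the trends removed. The log2 fold changes of Acta2 (0.16 ± 0.19, SE), Tpm1 (0.2 ± 0.18, SE) and Tagln (-0.01 ± 0.3, SE) had edgeR adjusted p = 0.553, 0.417 and 0.981.

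The third question was what stimulation of the RAW cells by LPS added. MSCs grown with LPS-stimulated RAW cells had 7 of the 10 genes lower and 1 higher at an adjusted p of at most 0.05 than MSCs grown with unstimulated RAW cells. At the adjusted p alone 18.9% of all genes were lower and 21.3% higher, and with the fold limit 12% were called lower and 15.4% higher. Tpm2, Tagln and Myl9 passed the fold limit, all lower. The median log2 fold change was -0.74 over the 10 genes and 0.14 over all genes. This comparison shares the MSC+RAW-TW sample with the one before, so their opposite directions are not separate evidence.

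Tpm2 read 272 and 397 CPM in MSC+RAW-LPS-TW a and b, below both MSC+RAW-TW libraries (788 and 781 CPM), a difference of -1.26 ± 0.21 (SE) on the log2 scale (edgeR adjusted p = 0.000227). Tagln read 10 and 15 CPM against 29.7 and 28.4 CPM, a difference of -1.25 ± 0.29 (SE) on the log2 scale (edgeR adjusted p = 0.00299). Myl9 read 200 and 267 CPM against 469 and 466 CPM, a difference of -1.03 ± 0.2 (SE) on the log2 scale (edgeR adjusted p = 0.00065). In each case library b was the higher of the LPS libraries and still below the unstimulated co-cultures. Without library a, Tagln (-0.98) and Myl9 (-0.83) fell short of 2-fold, and with the trends removed so did Tpm2 (-0.81), Tagln (-0.97) and Myl9 (-0.66), each still with an adjusted p under 0.05 by edgeR.

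Below 2-fold, the lower genes were Actg2 (log2 fold change -0.93, edgeR adjusted p = 0.000588), Lmod1 (-0.81, adjusted p = 0.0111), Cnn1 (-0.68, adjusted p = 0.0177) and Acta2 (-0.55, adjusted p = 0.0264). Cald1 went the other way, at 988 and 1224 CPM in MSC+RAW-LPS-TW a and b against 706 and 685 CPM, a difference of 0.63 ± 0.2 (SE) on the log2 scale (edgeR adjusted p = 0.0187), which became 0.08 with the trends removed (edgeR adjusted p = 0.792). Lmod1 and Cnn1 also missed the adjusted p with the trends removed, at 0.0956 and 0.103 by edgeR. Single libraries decided 3 of these passes: by edgeR the adjusted p was 0.1 for Acta2 and 0.0705 for Cald1 without MSC 1, 0.102 and 0.069 without MSC 2, and 0.0578 for Cnn1 without MSC+RAW-LPS-TW a. Tpm1 (-0.19 ± 0.18, SE) and Nexn (-0.1 ± 0.21, SE) did not pass, and Nexn became -0.92 with the trends removed (edgeR adjusted p = 0.00268).

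MSCs grown with LPS-stimulated RAW cells were also compared with MSCs grown alone, the pair of groups whose libraries were alike in base composition. Here 2 of the 10 genes were called, Cald1 higher and Tagln lower, where 5.85% of all genes were called higher and 5.09% lower. The same genes passed at the adjusted p alone, against 11.1% of all genes higher and 9.85% lower. Cald1 was at 988 and 1224 CPM in MSC+RAW-LPS-TW a and b and at 458 and 464 CPM in MSC 1 and 2, a difference of 1.27 ± 0.16 (SE) on the log2 scale, or 2.42-fold (edgeR adjusted p = 2.35e-05), and 1.25 with the trends removed. Tagln was at 10 and 15 CPM against 22.1 and 38.6 CPM, a difference of -1.27 ± 0.25 (SE) on the log2 scale (edgeR adjusted p = 0.00164). Without MSC 2, the MSC library where Tagln was higher, it was -0.8 and fell short of 2-fold.

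The smooth muscle actins Acta2 and Actg2 and Nexn lay slightly lower without passing the adjusted p. The cytoplasmic actin Actg1, of the wider list, lay higher, at 827 CPM against 487 CPM in MSC (log2 fold change 0.77). Acta2 read 516 and 576 CPM against 680 and 764 CPM in MSC, a difference of -0.39 ± 0.15 (SE) on the log2 scale (edgeR adjusted p = 0.0862). Nexn read 23.4 and 19.1 CPM against 30.1 and 26.8 CPM, a difference of -0.41 ± 0.18 (SE) on the log2 scale (edgeR adjusted p = 0.118), and Actg2 read 66 and 67.4 CPM against 82.6 and 79.4 CPM (-0.27, edgeR adjusted p = 0.229). Tpm1 (0.01 ± 0.15, SE), Tpm2 (0.02 ± 0.18, SE), Myl9 (0.12 ± 0.17, SE), Cnn1 (0.06 ± 0.18, SE) and Lmod1 (-0.05 ± 0.2, SE) overlapped between these groups, and the sign of all 5 turned when single libraries were left out.

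**Figure D2:**
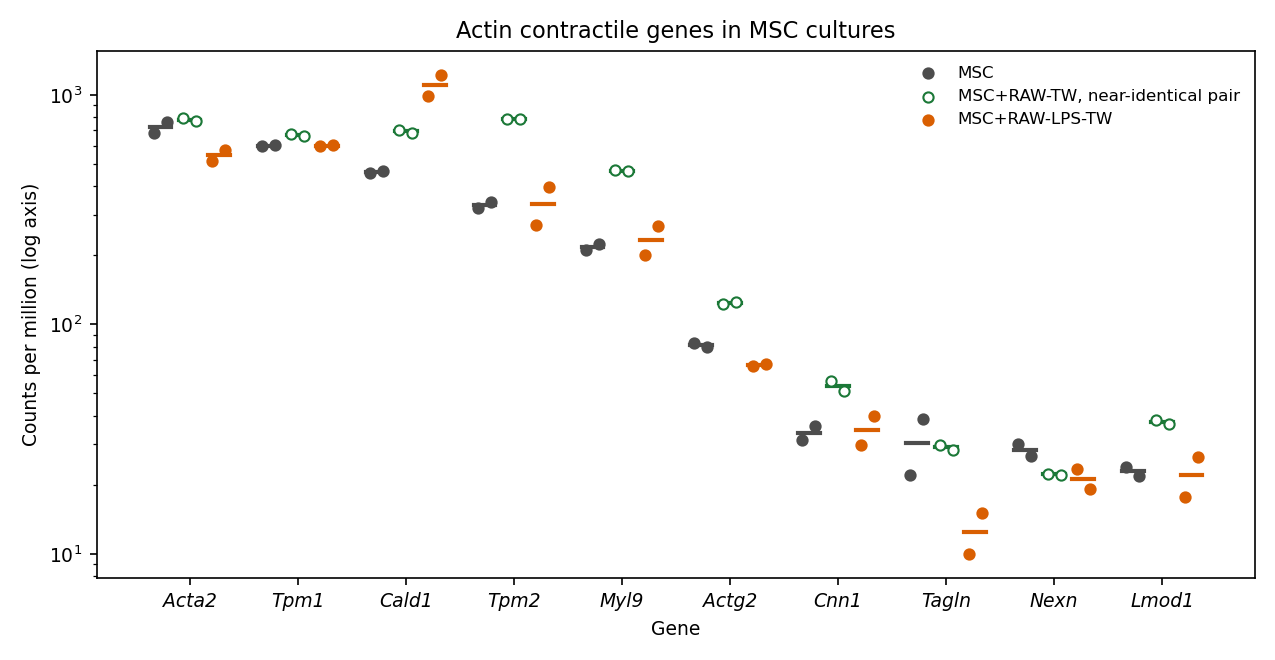
Level of each of the 10 genes in the 6 MSC libraries, in CPM on a log axis, with 1 point per library and a bar at the group mean (open points, the near-identical MSC+RAW-TW libraries, counted once). Tpm2 and Myl9 stand highest in MSC+RAW-TW, Cald1 is highest and Tagln lowest in MSC+RAW-LPS-TW.

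**Figure D3:**
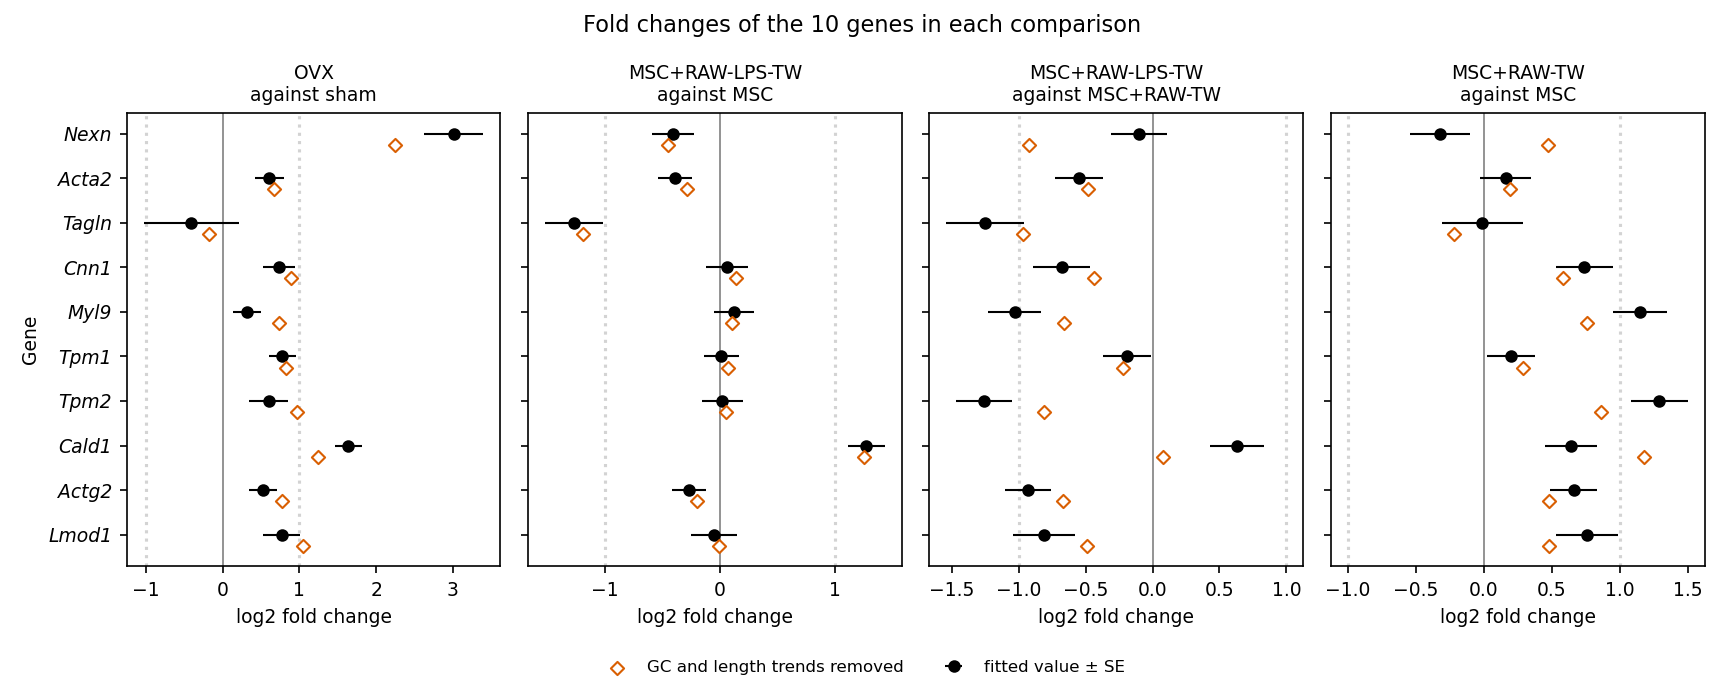
Log2 fold change of each gene in the 4 comparisons, with filled points for the fitted value and bars for its standard error, open diamonds for the value with GC and length trends removed, and dotted lines at 2-fold. The diamonds lie close to the points for MSC+RAW-LPS-TW against MSC and depart most for Nexn in the other 3 comparisons.

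In the MSC cultures the marker lists moved as well. The summed macrophage markers were highest in MSC+RAW-TW and lowest in MSC+RAW-LPS-TW, and the stromal sums took the reverse order, as given above. The macrophage sums were led by Lyz2, which averaged 21787, 26328 and 9562 CPM in MSC, MSC+RAW-TW and MSC+RAW-LPS-TW. Not every marker followed its sum. Of the 20 macrophage markers, 7, among them Adgre1 and Cybb, had a log2 fold change above 0 in MSC+RAW-LPS-TW relative to MSC+RAW-TW. The summed level of the 10 genes was 2462 to 2596 CPM in MSC, 3628 to 3699 CPM in MSC+RAW-TW and 2722 to 3237 CPM in MSC+RAW-LPS-TW. The summed pericyte markers stayed between 21.2 and 26.4 CPM over the 3 groups, but single ones moved in opposite directions. Ndufa4l2 averaged 0.343, 0.831 and 8.01 CPM in MSC, MSC+RAW-TW and MSC+RAW-LPS-TW, and Notch3 averaged 11.9, 12.4 and 4.81 CPM. The skeletal muscle markers summed to between 1.92 and 6.48 CPM, and the skeletal myosin heavy chains Myh1 and Myh4 were at 0 in every library of this experiment. The endothelial markers summed to 47 to 59.9 CPM, and the adipocyte markers to 60.6 to 62.6 CPM in MSC, 75.3 to 77.4 CPM in MSC+RAW-TW and 32.1 to 39.5 CPM in MSC+RAW-LPS-TW. The megakaryocyte markers, led by Pf4, which macrophages also express, summed to 157 to 410 CPM in BMMs and 2038 to 3453 CPM in MSCs. In MSC+RAW-LPS-TW against MSC, 5.85% of all genes were called higher and 5.09% lower. Of 12 stromal markers 3 were called higher and 0 lower there, and of 20 macrophage markers 2 (Cybb and Adgre1) higher and 7 lower. Of the pericyte markers 1 of 7 tested was called higher and 1 lower, and of the skeletal muscle markers 1 of 5 lower. Of the megakaryocyte markers 2 of 5 tested were called higher, and of the adipocyte markers 3 of 6 lower. In MSC+RAW-TW against MSC, 1 stromal marker was called higher and 2 lower, and 5 macrophage markers were called higher and 0 lower, where 6.8% of all genes were called higher and 9.59% lower. In MSC+RAW-LPS-TW relative to MSC+RAW-TW, 5 stromal markers were called higher and 1 lower, 5 macrophage markers higher and 9 lower, and 4 of 6 adipocyte markers lower, where 15.4% of all genes were called higher and 12% lower. The part that these shifts played in the contractile genes was not tested.

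**Figure D4:**
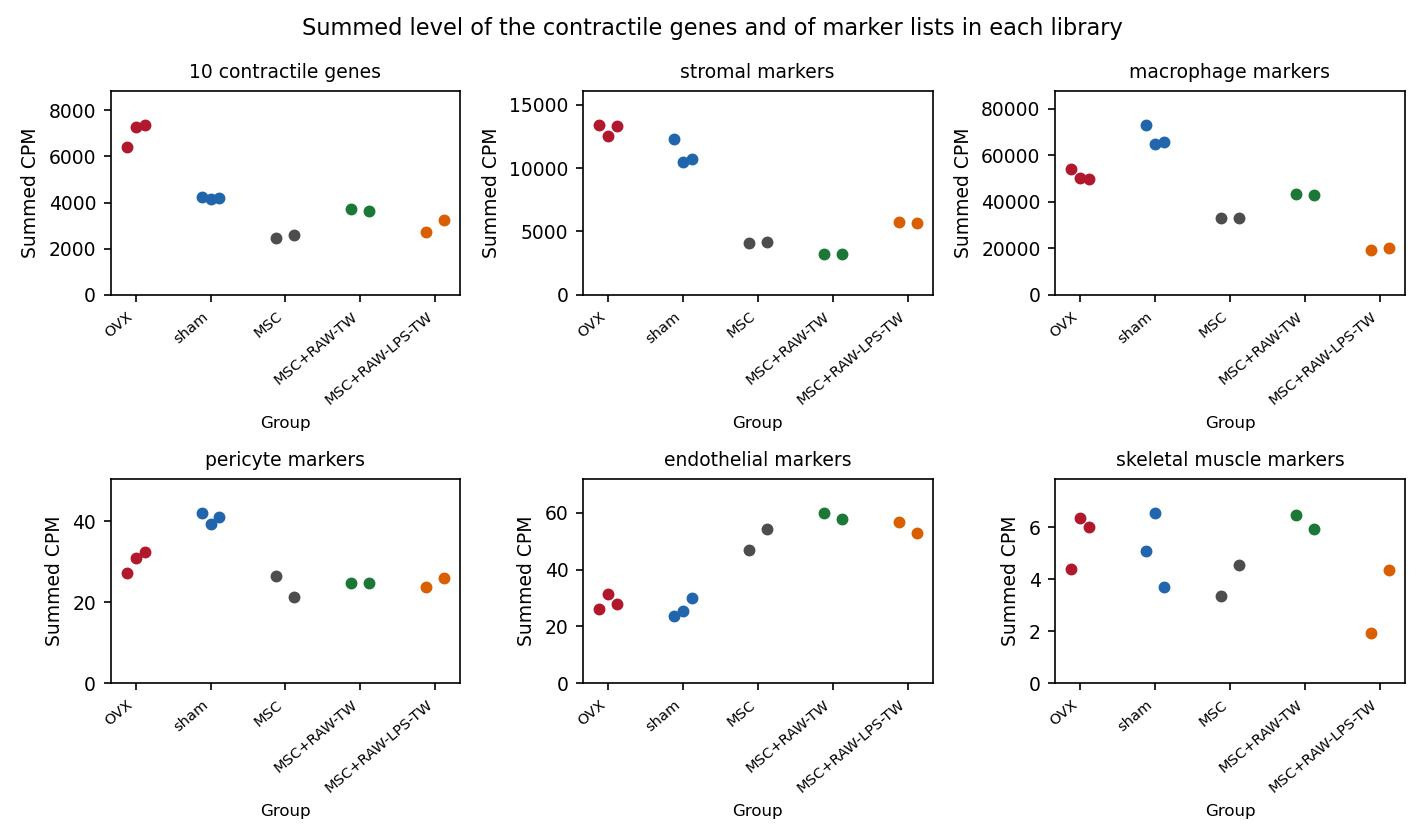
Summed CPM of the 10 contractile genes and of 5 marker lists, with 1 point per library, the 5 groups on the x axis and linear axes from 0. The contractile genes are highest in OVX (6421 to 7387) while the pericyte, endothelial and skeletal muscle markers stay under 60 in every library.

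Corrected for gene length, as RPKM (counts scaled by depth and by gene length), the order of the genes was much the same in every group. Acta2 was first in OVX (1204 ± 125, SD, n = 3), sham (770 ± 146, SD, n = 2), MSC (329 ± 26.8, SD, n = 2) and MSC+RAW-LPS-TW (249 ± 19.3, SD, n = 2), and Myl9 was second in each. In MSC+RAW-TW Myl9 (402 RPKM) stood above Acta2 (355 RPKM), with no replicate for this order. Nexn and Lmod1 were the lowest in every group, Nexn at 8.76 RPKM ± 3.6 (SD, n = 3) in OVX and 1.06 RPKM ± 0.261 (SD, n = 2) in sham. Lmod1 was at 8.65 RPKM ± 2.18 (SD, n = 3) in OVX, which does not differ from Nexn there beyond the spread. The ratio of mean RPKM of Acta2 to Actg2 was 6.34 in OVX, 6.02 in sham, 6.33 in MSC, 4.46 in MSC+RAW-TW and 5.82 in MSC+RAW-LPS-TW. The ratio of Tpm1 to Tpm2 was 1.8 in OVX and 1.6 in sham, against 0.813 in MSC, 0.381 in MSC+RAW-TW and 0.806 in MSC+RAW-LPS-TW. The tables were normalized separately, so levels set across the experiments carry no test.

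The genes whose pattern came closest to that of Nexn were not contractile genes. Likeness was measured as the root mean square difference between log2 CPM profiles, centred within each experiment, over 10 samples and 11024 genes. The nearest were Kif20b (0.306), Cenpe (0.312), Lrrcc1 (0.344), Cenpf (0.375) and Smc2 (0.391). Their GC content was 38.4% to 43.3%, close to the 39.6% of Nexn. Cenpe, a mitotic kinesin, averaged 17.1 CPM in OVX and 3.58 CPM in sham, and 45.7, 36.3 and 27.4 CPM in MSC, MSC+RAW-TW and MSC+RAW-LPS-TW. Of the other 9 contractile genes, Cald1 ranked nearest to Nexn, at 375, and Tagln farthest, at 6941. For Acta2 the nearest were Cenpa (0.081), Ifngr1 (0.117), Slc18b1 (0.12), Nudt4 (0.124) and Gins3 (0.132). Tpm1 (rank 84), Actg2 (rank 130) and Cnn1 (rank 141) were the contractile genes closest to Acta2, and Nexn was the farthest, at rank 10379.

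A wider list of 89 genes in 7 sub-lists was examined for what else of the contractile machinery moved. This list and the marker lists were chosen with earlier results of these data known. Their counts and adjusted p values in OVX against sham are therefore a description with no test. Between OVX and sham, 10 of the 79 tested were called higher and 2 lower, where 5.39% of all genes were called higher and 3.08% lower, and the median log2 fold change was 0.2, against -0.01 for all genes. The count depended on the libraries, with 4 called without OVX 2 and 19 without sham 1. In the RhoA and myosin phosphatase sub-list (14 genes), 3 were called higher and 1 lower, beside the same 5.39% and 3.08% of all genes. The kinases Rock1 (46.1 against 18.3 CPM, log2 fold change 1.3, edgeR adjusted p = 0.0138) and Rock2 (90.5 against 25.9 CPM, 1.77, adjusted p = 0.00491), which drive myosin light chain phosphorylation, and the phosphatase subunit Ppp1r12a, which opposes it, were higher. Dapk3, a kinase of the same light chain, was lower (12.4 against 28.3 CPM, -1.23, edgeR adjusted p = 0.0166).

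The TGF-beta and CCN sub-list held 4 higher and 1 lower of its 12 genes, again beside 5.39% and 3.08% of all genes. Tgfb1, the main ligand, was lower in OVX (74.6 against 173 CPM, log2 fold change -1.24, edgeR adjusted p = 0.0105), while the receptor Tgfbr1 (47.3 against 13.9 CPM, 1.74, adjusted p = 0.013) and Tgfb3 (103 against 50 CPM, 1, adjusted p = 0.013) were higher. Ccn1 (404 against 147 CPM, 1.42, edgeR adjusted p = 0.00868) and Ankrd1 (35.8 against 10.4 CPM, 1.73, adjusted p = 0.00882), known targets of YAP and TEAD, were higher. In the crosslinker and adhesion sub-list the LIM proteins Fhl1 and Fhl2 were called higher (2 of 19 tested), and in the myosin sub-list the nonmuscle heavy chain Myh10 (1 of 10). None of the 4 actin isoforms, 12 thin filament genes or 8 SRF, MRTF and TEAD genes tested was called, and 1, 1 and 1 of them passed the edgeR adjusted p alone. Srf itself averaged 26.5 CPM in OVX and 39 CPM in sham (edgeR adjusted p = 0.0517).

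In the MSC cultures the wider list had 9 of 81 tested called higher and 3 lower with unstimulated RAW cells than in MSC alone, where 6.8% of all genes were called higher and 9.59% lower. With the trends removed, 4 rather than 12 were called there. With LPS-stimulated RAW cells, 8 were called higher and 3 lower than in MSC alone, against 5.85% and 5.09% of all genes. In MSC+RAW-LPS-TW relative to MSC+RAW-TW, 11 were called higher and 5 lower, against 15.4% and 12% of all genes. The thin filament gene Smtn (smoothelin) and the LIM protein Csrp2 were called higher than in MSC in both co-cultures. Smtn averaged 24 CPM in MSC, 49.3 CPM in MSC+RAW-TW and 51.5 CPM in MSC+RAW-LPS-TW, and Csrp2 21.6, 49.2 and 58.6 CPM. Vcl (vinculin, an adhesion protein) averaged 82.3, 81.8 and 173 CPM, and was called higher in MSC+RAW-LPS-TW against both other groups. The same held for Wwtr1 (TAZ, a TEAD partner), at 23.3, 15.5 and 47.7 CPM. Tgfb3 fell, at 49.8, 66.6 and 12 CPM (log2 fold change -2.05 against MSC, edgeR adjusted p = 1.49e-07).

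Cfl1 (cofilin, which severs actin filaments) averaged 2004 CPM in MSC, 4493 CPM in MSC+RAW-TW and 1949 CPM in MSC+RAW-LPS-TW, and was called in both comparisons with MSC+RAW-TW. Actb followed with 10469, 18456 and 11519 CPM, under 2-fold in each comparison. The smooth muscle coactivator Myocd, which is among the genes called in both comparisons with MSC+RAW-TW, was at 0 there and averaged 0.437 CPM in MSC and 0.387 CPM in MSC+RAW-LPS-TW, and Myh11 averaged 0.884 CPM in MSC, 0.537 CPM in MSC+RAW-TW and 1.63 CPM in MSC+RAW-LPS-TW.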

How the data were processed

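PolyA RNA was sequenced from directional (strand-marking) libraries as read pairs, and per the labels and the study's methods the authors trimmed reads with Trim Galore 0.6.7, aligned them with HISAT2 2.1.0 to GRCm38 and counted them with featureCounts 2.0.1. The authors deposited unnormalized read counts for every gene in 1 table per experiment, and the strand setting of the counting is not given in the sources used here. Of 55487 gene identifiers, 55141 had a symbol.

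Counts were fitted with edgeR 4.0.16 in R 4.3.3 (quasi-likelihood F test, two-sided, TMM, filterByExpr) on each whole table, with Benjamini-Hochberg adjustment over all genes tested. A gene was called at an adjusted p of at most 0.05 and a fold of at least 2. CPM used TMM library sizes. Near-identical libraries were summed. The test was also run on simulated counts, drawn with the same spread for every gene and no GC trend. That check therefore does not cover the GC trends of these libraries. The total counts, 17012923 to 45367105, set the counting precision.

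The 10 genes and all gene lists were chosen with earlier results of these data known. Named genes were the 10, members of the wider list and of 7 marker lists (stromal, macrophage, pericyte, endothelial, skeletal muscle, megakaryocyte, adipocyte), and the 5 genes nearest to Nexn and to Acta2 among those with a mean of at least 5 CPM in an experiment (prior count of 2). Alternatives were RLE scaling, no filter, DESeq2 1.42.0, lowess trends on GC content and length removed (span 0.3), every library separate, a replicate block, only the groups compared, no fold limit and each library left out. A block on library number series was added after seeing the data. Some genes of the wider list are counted but not reported here by name.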

Additional observations from a re-analysis of the deposited data

How the results depend on the processing

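The direction and call of most single-gene values held under the alternatives tried: 128 values were unchanged in call and, at the 2 decimals printed, in sign for OVX against sham, 122 for MSC+RAW-LPS-TW relative to MSC, 113 for MSC+RAW-LPS-TW relative to MSC+RAW-TW and 114 for MSC+RAW-TW against MSC. With GC and length trends removed, 0 rather than 3 of the 10 genes were called in MSC+RAW-LPS-TW relative to MSC+RAW-TW, 1 rather than 2 in MSC+RAW-TW against MSC, and 4 rather than 12 of the wider list there, while calls over all genes went from 5624 to 4685, from 3360 to 2167 and, for OVX against sham, from 1419 to 590. In OVX against sham, 3 rather than 2 of the 10 genes and 11 rather than 12 of the wider list were called. Nexn in MSC+RAW-TW against MSC turned to 0.47. The cause was not tested. Without a fold limit, 8 of the 10 genes passed in MSC+RAW-LPS-TW relative to MSC+RAW-TW and 6 in MSC+RAW-TW against MSC, and the wider list gave 22, 28, 37 and 30 genes in OVX against sham, MSC+RAW-LPS-TW against MSC, MSC+RAW-LPS-TW relative to MSC+RAW-TW and MSC+RAW-TW against MSC.

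Leaving out single libraries, the wider list gave 4 (without OVX 2) to 19 (without sham 1) calls in OVX against sham, and all genes 309 to 2390 for the same libraries. The 10 genes gave 1 (without MSC 2) to 2 calls in MSC+RAW-LPS-TW against MSC and 1 (without library a) to 4 (without library b of MSC+RAW-LPS-TW) in MSC+RAW-LPS-TW relative to MSC+RAW-TW. The log2 fold change crossed 0 in MSC+RAW-LPS-TW against MSC for Cnn1 (-0.17 to 0.23), Myl9 (-0.11 to 0.29), Tpm2 (-0.28 to 0.25), Lmod1 (-0.37 to 0.19) and Tpm1 (-0.0044 to 0.02), in MSC+RAW-LPS-TW relative to MSC+RAW-TW for Nexn (-0.24 to 0.04) and in MSC+RAW-TW against MSC for Tagln (-0.37 to 0.45, and 0.02 with the library number series as a block, an alternative chosen after seeing the data).

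Libraries of OVX and sham share replicate numbers, but their deviations correlated at 0.36, -0.01 and 0.31, so the numbers were not taken as pairs. With the replicate block, 2 of the 10 genes, 13 of the wider list and 2117 genes in all were called, against 1818 in all with every library separate and no block. No paired analysis was possible because of the MSC table's column names, as far as replicate numbers go: they do not give each co-cultured library its own labelled number. A block on their library number series could be fitted, with every library separate. It left 2, 3 and 2 of the 10 genes called in MSC+RAW-LPS-TW against MSC, in MSC+RAW-LPS-TW relative to MSC+RAW-TW and in MSC+RAW-TW against MSC. In MSC+RAW-LPS-TW against MSC the adjusted p of Acta2, under 2-fold in each setting, ranged from 0.00997 (edgeR, without MSC+RAW-LPS-TW b) to 0.604 (edgeR, without MSC 2), and was 0.0297 with every library separate (edgeR), 0.0292 with the series block (edgeR) and 0.0356 by DESeq2. That of Nexn ranged from 0.0291 (edgeR, without MSC+RAW-LPS-TW a) to 0.513 (edgeR, without MSC 1), and was 0.0431 with the series block (edgeR). The lowest count of the 10 genes was 79, for Nexn in sham 2, the library with the fewest total counts. The bearing of depth on this value was not tested.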
